A study of Mus musculus with 7 samples.

Results

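The members described here were 50 of the gene regulatory elements (GREs) carried by an adeno-associated virus (AAV) library in mouse visual cortex. They were chosen by 2 columns of the annotated element table: each was called intergenic, and each lay under 100 kb from the nearest annotated transcription start. With them, the whole library was made up of 92 intergenic elements at 100 to 500 kb, 40 beyond 500 kb, and 105 within a gene or at its end. The rule used no measured value. The pair of members closest to the limit, GRE113 (at -90770 bases from the start of Dusp26, a minus sign standing for upstream) and GRE95 (at -98743 bases from Pard3b), had Sst folds (defined below) of 1.72 and 1.88. Just outside it, GRE73 at -100700 bases and GRE30 at -101775 bases had folds of 2.80 and 1.05.

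Enhancers are stretches of DNA that raise transcription from a promoter at a distance, often in some cell types and not in others. In an enhancer screen with AAV, each element is placed upstream of a minimal promoter and a reporter, and a short transcribed barcode tells which element drove each transcript. Somatostatin (Sst) interneurons are inhibitory cells of the cortex that contact the dendrites of their targets, parvalbumin (Pvalb) interneurons contact the cell bodies of theirs, and vasoactive intestinal peptide (Vip) interneurons mainly inhibit other interneurons.

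The screen was 1 sample of C57BL/6J mice, labelled as male and 6 to 10 weeks old, injected in visual cortex with the AAV9 library named SST PESCA and read by single-nucleus RNA sequencing (inDrops) in 10 libraries. The libraries formed 2 sets of 5. The methods describe 2 mice with 5 libraries each, the same numbers as the sets, but no label ties a set to a mouse, so they are named only as sets 1 and 2. All elements shared the AAV9 capsid, the human HBB minimal promoter and the GFP reporter, and each was paired with 3 barcodes. Chromatin accessibility (ATAC-seq) came from uninjected mice of 6 to 12 weeks, labelled as male although the methods name both sexes, in which a Cre driver marked nuclei of whole cortex through the SUN1-2xsfGFP-6xMYC allele. The drivers were Sst-IRES-Cre, Pv-Cre and Vip-IRES-Cre, with 2 replicates each, and every cell with a history of Cre expression is marked in such a cross.

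Of 47348 cell barcodes, 32335 had more than 200 UMIs (unique transcripts) of genes other than the viral ones and were kept as nuclei, 2457 to 3629 per library. Nuclei were assigned by gates on marker genes. The Sst and Vip gates asked for at least 3 UMIs of the gene, the Npy gate for at least 3 of Npy in nuclei outside both, and the Pvalb gate for at least 2. Excitatory nuclei needed at least 2 UMIs, and glial and vascular nuclei at least 3, from at least 2 genes of a marker list. A total of 623 nuclei passed the Sst gate alone, 336 of them in set 1 and the rest in set 2, with a median of 11 Sst UMIs. The gate is a range and not a type: 72 of the 623 had exactly 3 Sst UMIs, 190 nuclei outside it had 2, and 771 had 1. Of the Sst-gated nuclei, 587 (94.2%) fell in 1 expression cluster of 880 nuclei, and their median count over the excitatory, glial and vascular marker lists was 0. Nuclei that passed several gates (1361, of which 170 passed the Sst gate) were left out of every class. A further 13282 nuclei (41.1%) passed no gate. They stayed among the nuclei that each class was compared with, and held 12.8 UMIs of the excitatory list per 10000.

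Some libraries shared cell barcode names. Of 25866 barcode names, 5476 occurred in more than 1 library, and these covered 11945 nuclei. Neighbouring libraries of a set shared 543 names per library pair, against 118 for other pairs of a set and 75.7 for pairs from different sets. Same-named nuclei of neighbouring libraries were also more alike in their genes, with a median cosine similarity of 0.240 against 0.196 for other pairs of a set and 0.186 between sets. Whether same-named barcodes were the same nuclei was not tested, and results are also given with each name of a set counted once (27166 nuclei, 520 of them Sst-gated).

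The sequences of 8 members are shown first because the results turn on them. Among members with at least 300 UMIs, they include the 4 highest Sst folds (GRE12, GRE58, GRE156 and GRE14). They also include the highest Pvalb fold (GRE255) and the lowest Sst fold (GRE96) of those members. The others are the most abundant member (GRE126) and the member with the most ATAC reads (GRE267). Each is the central 300 bases of the element in mouse build GRCm38 (mm10), forward strand, read from the RefSeq genome sequence. Capitals mark matches on either strand to the motifs listed with the sequence features. The cloned fragments held additional flanking sequence, and the barcode sequences were not used here. The windows are chr15:52005640-52005939 upstream of Rad21, chr4:51127811-51128110 upstream of Cylc2, chr3:49841997-49842296 upstream of Pcdh18, chr14:87374273-87374572 upstream of Tdrd3, chr2:58240721-58241020 upstream of Gm13544, chr16:24053404-24053703 upstream of Bcl6, chr5:69379149-69379448 upstream of Kctd8 and chr2:138326601-138326900 downstream of the start of Btbd3.
GRE12: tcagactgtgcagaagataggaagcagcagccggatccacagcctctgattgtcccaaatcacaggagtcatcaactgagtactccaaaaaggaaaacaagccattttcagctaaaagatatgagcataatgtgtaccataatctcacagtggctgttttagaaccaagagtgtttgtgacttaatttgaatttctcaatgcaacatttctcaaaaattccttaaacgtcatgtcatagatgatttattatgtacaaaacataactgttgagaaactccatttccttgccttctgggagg
GRE58: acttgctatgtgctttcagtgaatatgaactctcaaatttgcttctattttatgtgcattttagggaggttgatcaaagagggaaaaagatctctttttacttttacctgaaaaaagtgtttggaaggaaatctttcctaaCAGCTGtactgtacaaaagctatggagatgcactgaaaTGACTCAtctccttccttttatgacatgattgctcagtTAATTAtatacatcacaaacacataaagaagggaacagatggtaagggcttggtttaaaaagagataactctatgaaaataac
GRE156: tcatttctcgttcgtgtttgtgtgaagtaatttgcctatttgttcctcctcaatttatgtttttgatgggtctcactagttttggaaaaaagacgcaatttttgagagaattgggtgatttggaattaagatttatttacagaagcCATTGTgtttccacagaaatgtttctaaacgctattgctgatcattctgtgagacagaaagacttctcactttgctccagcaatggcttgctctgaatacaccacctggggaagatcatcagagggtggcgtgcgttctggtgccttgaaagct
GRE14: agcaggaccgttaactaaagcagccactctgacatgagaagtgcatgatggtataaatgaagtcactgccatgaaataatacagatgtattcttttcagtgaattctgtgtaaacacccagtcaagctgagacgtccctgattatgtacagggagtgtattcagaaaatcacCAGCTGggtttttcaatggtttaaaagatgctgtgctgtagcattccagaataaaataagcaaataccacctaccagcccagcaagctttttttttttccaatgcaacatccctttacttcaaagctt
GRE255: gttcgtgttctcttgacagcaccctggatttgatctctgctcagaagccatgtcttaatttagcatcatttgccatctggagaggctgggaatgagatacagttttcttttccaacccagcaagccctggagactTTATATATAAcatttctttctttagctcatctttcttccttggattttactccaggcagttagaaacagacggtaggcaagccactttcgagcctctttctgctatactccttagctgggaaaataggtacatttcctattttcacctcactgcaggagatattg
GRE126: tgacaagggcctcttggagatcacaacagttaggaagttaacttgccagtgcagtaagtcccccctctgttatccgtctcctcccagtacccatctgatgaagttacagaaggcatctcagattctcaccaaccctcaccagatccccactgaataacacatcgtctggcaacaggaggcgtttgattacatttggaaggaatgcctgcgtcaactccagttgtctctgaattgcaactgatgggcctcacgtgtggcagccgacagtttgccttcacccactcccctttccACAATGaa
GRE96: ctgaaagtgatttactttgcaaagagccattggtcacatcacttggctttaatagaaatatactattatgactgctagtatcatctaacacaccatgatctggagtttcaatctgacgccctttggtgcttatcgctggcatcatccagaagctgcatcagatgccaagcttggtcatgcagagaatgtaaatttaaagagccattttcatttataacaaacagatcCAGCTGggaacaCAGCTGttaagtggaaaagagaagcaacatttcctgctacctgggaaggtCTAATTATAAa
GRE267: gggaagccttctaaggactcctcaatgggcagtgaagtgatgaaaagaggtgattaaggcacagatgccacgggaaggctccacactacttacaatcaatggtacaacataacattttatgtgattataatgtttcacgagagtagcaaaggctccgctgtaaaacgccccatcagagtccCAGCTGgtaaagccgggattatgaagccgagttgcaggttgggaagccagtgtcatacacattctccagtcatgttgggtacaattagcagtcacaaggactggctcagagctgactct

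Most members were more abundant in Sst-gated nuclei than in the rest, but so was the library as a whole. The Sst fold of an element is its mean UMIs per Sst-gated nucleus plus 0.01, divided by its mean in the 31542 nuclei that did not pass the Sst gate plus 0.01. The median over the 50 members was 1.96, with quartiles of 1.37 and 3.05 and a range of 0.820 to 7.85. Over all elements of the library the median was 1.91. Folds above 2 were reached by 25 members (50%), against 48.8% of all elements, so the members' share was near the background.

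The summed UMIs of all elements were 3.04 times as high per Sst-gated nucleus (mean 45.0) as per other nucleus (14.8). The numbers of genes' UMIs differed less, with medians of 816 and 706 per nucleus. Taken as a share of all element UMIs in the same nuclei, the median member was at 0.884 of its share elsewhere, against 0.877 for all elements. The share scale sets the common excess aside by construction. On it 20 of the 50 members (40%) were above 1, against 39.4% of all elements, and 3 were above 2, against 8.71% of all elements. These 3 were GRE12, GRE58 and GRE70, which had 198 UMIs, lay outside the rule for named members and is named after its values were seen. The part of the common excess of viral transcripts in the folds per nucleus was not tested.

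The folds differed between library sets and barcodes. The median member fold was 1.68 in set 1 and 2.15 in set 2, and over single libraries it lay between 0.910 and 2.38 (SD 0.563, n = 10 libraries). Folds above 2 were seen in both sets for 16 members (32%), against 27.9% of all elements, and with each of the 3 barcodes alone for 12 (24%), against 11.5%. Across the 50 members the log2 folds of the sets had a Pearson r of 0.42 (Spearman rho 0.40), given as a description because the points share libraries. With each barcode name of a set counted once the median was 2.07 and 26 members passed 2. All intervals below are exact 95% intervals of counting error only, since nuclei of 1 sample are not replicates and no test between nuclei was made.

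Members ranged widely in abundance, from 27 to 15567 UMIs with a median of 1049, against 764 for all elements. Together they gave 101852 of 503357 element UMIs (20.2%). Of the 34 members with at least 300 UMIs, 22 (64.7%) had a fold above 2, against 69.4% of such elements in the whole library. Folds of rare members were pulled towards 1 by the pseudocount, and fold and UMIs had a Spearman rho of 0.64 over the 50 members. Distance to the start had little relation to the fold, with a Spearman rho of 0.12.

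GRE12, at -14029 bases from the start of Rad21, had the highest fold of the members and ranked 4 in the whole library. It gave 283 UMIs in 44 Sst-gated nuclei, a mean of 0.454 per nucleus (0.403 to 0.510), against 0.0491 in other nuclei. Its fold was 7.85 (6.93 to 8.87), with 5.42 in set 1 and 10.5 in set 2, and over single libraries it was 1.54 at the lowest, 7.69 at the median and 17.6 at the highest. It was thus above 1 in all 10 libraries. The barcodes alone gave 3.41, 4.29 and 11.3. Against the nuclei of the Pvalb, Vip and Npy gates the fold was 6.86, and on shares of element UMIs 3.04. Without the 1% of nuclei with the most viral UMIs it was 3.12. Leaving out each library in turn moved it between 7.26 and 8.51.

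GRE58 lay at -88718 bases from the start of Cylc2, which encodes a protein of the sperm head. It had 294 UMIs in 67 Sst-gated nuclei and a mean of 0.472 against 0.0746, a fold of 5.70 (5.05 to 6.41). Set 1 gave 6.63 and set 2 gave 4.58, and the barcodes gave 3.40, 4.64 and 6.01. All 10 libraries were above 1, from 1.21 through a median of 4.45 to 24.8. GRE12 and GRE58 were the only named members whose fold stayed above 2 under all 30 alternative settings, including shares of element UMIs, where GRE58 was at 2.08.

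GRE156, at -84830 bases from the start of Pcdh18, had a mean of 0.348 UMIs per Sst-gated nucleus (0.304 to 0.398) against 0.0790 elsewhere, a fold of 4.03 (3.51 to 4.61). It was at 2.85 in set 1 and 5.65 in set 2, and 9 of 10 libraries were above 1. Its barcodes alone were at 4.96, 1.71 and 3.01. Against the other interneuron gates its fold was 5.69, the second highest of the named members after GRE12.

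GRE14, upstream of the start of Tdrd3, had 6603 UMIs, more than GRE12 (1874), GRE58 (2696) and GRE156 (2770). Its means per nucleus below were not scaled to the abundance of the element in the virus library. On shares of element UMIs it was at 1.25 for the Sst, 1.02 for the Pvalb, 1.12 for the Npy and 1.05 for the excitatory gate. Its mean was 0.719 UMIs in Sst-gated nuclei (448 UMIs), 0.449 in Pvalb-gated and 0.293 in Npy-gated nuclei, against 0.240 in excitatory-gated nuclei. In Vip-gated nuclei it was lower, at 0.147, a Vip fold of 0.729 (0.552 to 0.947). The Sst fold was 3.68 (3.34 to 4.04), with 2.28 and 5.41 in sets 1 and 2 and all barcodes between 2.78 and 4.63. Against the other interneuron gates it was 2.52.

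GRE70, next to Rassf9, had the third highest fold of all 50, 4.15 (3.05 to 5.54), but only 32 UMIs in Sst-gated nuclei, 16 of them in 1 nucleus, without which the fold was 2.42. Its fold was above 1 in 4 of 10 libraries, and it was 2.66 without library 1-3.

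The next 6 members with at least 300 UMIs had folds between 3.13 and 3.48. GRE64 (Spcs3) had a fold of 3.48, but it rested on 1 barcode, at 4.62 for the third against 1.16 and 1.31 for the others. GRE245 (Zfp362) was at 3.47 overall and 1.75 against the other interneuron gates. For GRE188 (Lif), 81 of the 193 UMIs in Sst-gated nuclei came from 1 nucleus, and the fold of 3.43 was 2.04 without it and 2.07 without library 2-1.

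GRE69 (Ldoc1) had a fold of 3.37, which was 2.10 without library 2-2 and 1.40 without the 1% of nuclei highest in viral UMIs. GRE146 (named gene 4933407G14Rik) was the most even of these 6 across barcodes, at 3.15, 2.64 and 3.36, with a fold of 3.30 (2.97 to 3.67) and 1.77 without those nuclei. GRE255 (Gm13544) had a fold of 3.13 and was above 1 in every library, from 2.13 to 5.66. Its mean UMIs per nucleus, not scaled to depth, were higher in Pvalb-gated than in Sst-gated nuclei, as described with the Pvalb gate below. The median depth of these gates was 1315 and 816 UMIs of genes, and the order per UMI of genes was not tested.

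At the other end, 3 members with at least 300 UMIs had the lowest folds. GRE96, upstream of Kctd8, gave 8 UMIs in 7 Sst-gated nuclei, a mean of 0.0128 against 0.0178 elsewhere, and a fold of 0.820 (0.556 to 1.27). With Sst nuclei taken by expression cluster in place of the gate its fold was 2.01, so its order depended on how Sst nuclei were chosen. GRE34 (Crisp4) had a fold of 1.26 (0.918 to 1.70) and GRE111 (Mir466f-3) 1.36 (0.948 to 1.94). The intervals of all 3 included 1.

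The most abundant members were GRE126 and GRE158. GRE126, at -64941 bases from the start of Bcl6, gave 15567 UMIs in 4801 nuclei. Its fold was 2.61 (2.42 to 2.80), with 2.40 and 2.89 in the sets and 2.71, 2.64 and 2.23 for the barcodes, and all 10 libraries were above 1. Its Pvalb and Npy folds were 2.00 and 2.11, and on shares of element UMIs its Sst value was 0.869. GRE158 (A830019L24Rik) had 8740 UMIs, an Sst fold of 2.42 and a share fold of 0.814. Both thus had folds above 2 per nucleus, while their share of element UMIs was lower in Sst-gated nuclei than elsewhere. The median over all elements was also below 1 on this scale, at 0.877.

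The least abundant members were near the limit of detection. GRE60 (Samsn1) had 27 UMIs in 26 nuclei and none in the 623 Sst-gated nuclei, which at a floor of 3 counts allows a share of up to 0.482% of nuclei with a UMI. GRE107 (Ccdc66) had 28 UMIs, 1 of them in an Sst-gated nucleus, a fold of 1.07 (0.922 to 1.70). GRE244 also had no UMI in Sst-gated nuclei. With GRE60 and GRE244 at a floor of 3 UMIs the median fold was 1.96. This floor could not move the median, because both members stayed below it.

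Shares of nuclei with a UMI gave another order than levels per nucleus for some members. As a ratio of shares, GRE126 was at 1.79, GRE146 at 1.97 and GRE79 at 1.96, below 2. GRE111 was at 3.12, GRE154 at 2.85, GRE232 at 2.35, GRE21 at 2.31 and GRE264 at 2.30, above 2 where their folds were below it. These ratios carried no pseudocount, unlike the folds. With a pseudocount of 0.001, the folds of GRE232 and GRE21 also passed 2, at 2.17 and 2.04. GRE12 was seen in 7.06% of Sst-gated nuclei (5.18% to 9.37%) and in 1.84% of the others. Vascular-gated nuclei, which should lack neuronal activity, gave 1.04% at a median depth of 953 UMIs, and excitatory-gated nuclei had a median of 1072. After thinning each nucleus to 300 UMIs of genes by calculation, the expected shares of Sst-gated, other and vascular-gated nuclei were 3.77%, 0.913% and 0.521%. The methods describe a separate PCR enrichment of viral transcripts, so their depth need not follow that of genes. The thinning is therefore not a full correction for depth. For GRE126 the shares were 26.0%, 14.5% and 9.38%, and 15.2%, 7.90% and 3.50% after thinning. The thinning left out 67 Sst-gated and 6074 other nuclei that were shallower. Member UMIs of any kind were in 71.3% of Sst-gated, 50.6% of other and 36.2% of vascular-gated nuclei. A share at or below that of vascular-gated nuclei was read as background. The cell barcodes left out for few UMIs of genes (median 129) had member UMIs more often, in 41.7%. The vascular share is therefore not an upper limit of background, and a share somewhat above it may also be background.

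By mean UMIs per nucleus, 30 of the 50 members were highest in Sst-gated nuclei, 10 in Pvalb-gated, 5 in Npy-gated and 3 in Vip-gated nuclei. In percent these were 60, 20, 10 and 6, against 54.4, 26.5, 7.32 and 3.83 of all elements. Means per nucleus were not scaled to depth, and Pvalb-gated nuclei had a median of 1315 UMIs of genes, against 816 in Sst-gated nuclei. Whether the order of the gates holds per UMI of genes was not tested. The last pair had few UMIs: GRE224 (176 UMIs) was highest in excitatory-gated nuclei, at 0.00994 UMIs per nucleus against 0.00321 in Sst-gated nuclei, and GRE267 (199 UMIs) in oligodendrocyte-gated nuclei, at 0.0172 against 0.00321.

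Pvalb folds, taken against all nuclei outside the Pvalb gate, were above 2 for 10 members (20%), against 31.4% of all elements. The highest was GRE255, with 0.514 UMIs per Pvalb-gated nucleus (125 UMIs over a gate of 243 nuclei). Its Pvalb fold was 4.13 (3.44 to 4.92) and its share fold 2.02. Its mean was 0.379 in Sst-gated, 0.305 in Npy-gated and 0.0381 in Vip-gated nuclei, again not scaled to depth. GRE158 came next among the named members, with 0.934 UMIs per Pvalb-gated nucleus and a fold of 3.45 (3.02 to 3.94).

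Among the smaller gates, GRE7 (Mir682) had the highest Vip fold, 2.38 (1.88 to 2.99), with 70 UMIs over a gate of 341 nuclei. Its Sst fold was 3.05. GRE79, upstream of Tle4, had the highest Npy fold, 4.23 (3.13 to 5.63), from 44 UMIs over a gate of 266 nuclei. Whether folds of gates other than Sst rested on single nuclei, libraries or barcodes was not tested. Its Sst fold of 3.01 came mostly from 1 nucleus, which held 51 of the 69 UMIs, and was 0.969 without it and 1.03 without library 2-2. GRE264, upstream of Ednrb, had an Npy fold of 2.86 (1.97 to 4.03) and, against the other interneuron gates, an Sst fold of 0.722.

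With the pseudocount of 0.01, which pulls rare members towards 1, no member had a fold above 2 in excitatory-gated or glial nuclei. Some rare members had counts there. Excitatory-gated nuclei were 38.9% of all nuclei, with a mean of 17.9 element UMIs, and oligodendrocyte-gated nuclei were 4.13%, with a mean of 5.08. GRE224 had 125 of its 176 UMIs and GRE209 70 of its 96 in excitatory-gated nuclei, and GRE267 had 23 of 199 in oligodendrocyte-gated nuclei, a fold of 1.75 (1.34 to 2.31), and 20 in astrocyte-gated nuclei. GRE209 lay outside the rule for named members and is given after its values were seen, as is GRE224. Among members with at least 300 UMIs, GRE154 (Msl2) had the highest excitatory fold, 1.63 (1.46 to 1.81). The highest values for astrocytes (GRE232, 1.11), oligodendrocytes (GRE21, 0.672), OPCs (GRE12, 0.639), microglia (GRE152, 1.11) and vascular nuclei (GRE264, 0.793), among members with at least 300 UMIs, rested on 5 to 41 UMIs each. For GRE152 (Kcnip4), for which 1 nucleus held 40 of the 80 UMIs in Sst-gated nuclei, the Sst fold of 3.06 was 1.41 without library 1-5. The median member fold was 1.22 for excitatory-gated, 0.637 for astrocyte-gated and 0.490 for vascular-gated nuclei.

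The gene named for each member was read in the same nuclei. Of the 50 genes 46 were in the tables, 29 with at least 100 UMIs. Relative to the UMIs of all genes, 6 of these 29 were higher in Sst-gated nuclei by their counting intervals, 10 were lower and 13 were neither. Of all 13000 genes with at least 100 UMIs, 11.6% were higher and 18.2% lower by the same interval, which narrows as a gene's UMIs rise. Folds above 2 were held by members next to 2 of the 6 higher genes and 4 of the 10 lower ones, against 50% of all members. The median fold was 1.44 beside the higher genes, 1.59 beside the lower ones and 2.36 beside those that were neither. The ratio of the gene and the fold of the member had a Spearman rho of -0.23 over the 29 pairs.

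Pcdh18, a protocadherin of the cell adhesion family and the gene named for GRE156, had the highest ratio of the 29. It had 105 of its 414 UMIs in Sst-gated nuclei, 1.82 per 10000 UMIs against 0.0949 in other nuclei, a ratio of 19.2 (15.1 to 24.1). Its level was 1.66 and 1.96 in sets 1 and 2, 0.979 in Vip-gated nuclei and 1.17 in vascular-gated nuclei. Tyw5, an enzyme of tRNA modification next to GRE215 (fold 2.58), was the other gene that was higher in Sst-gated nuclei beside a member above 2, with a ratio of 1.53 (1.03 to 2.18). GRE215 had 37 of its 96 UMIs in Sst-gated nuclei in 1 nucleus, and its fold was 1.65 without that nucleus, 1.65 without library 2-1, 1.22 in set 1 and 0.838 with barcode 2 alone.

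Other genes that were higher in Sst-gated nuclei lay beside members with folds below 2. Kctd8, an auxiliary subunit of GABA-B receptors, had a ratio of 5.58 (3.69 to 8.17), while its neighbour GRE96 had the lowest Sst fold of the 50 at the pseudocount of 0.01. On shares of element UMIs GRE96 was at 0.236, and GRE267, at 0.177, was among the members below it. Grik2, a kainate receptor subunit, had a ratio of 2.92 (1.81 to 4.50) beside GRE41 at a fold of 1.70. Btbd3, next to GRE267, was at 1.33 (1.00 to 1.74) and highest in Pvalb-gated nuclei, at 3.05 per 10000 UMIs. The sets went opposite ways for Btbd3, with 0.628 in Sst-gated against 0.688 in other nuclei in set 1 and 1.27 against 0.768 in set 2.

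Genes that were lower in Sst-gated nuclei included the most abundant of the list. Mef2c, a transcription factor of neurons, was at 6.04 per 10000 UMIs against 11.3 elsewhere, a ratio of 0.535 (0.480 to 0.594), with 13.1 in excitatory-gated nuclei. Its neighbour GRE232 had a fold of 1.71, which was 2.31 in set 1 and 0.944 in set 2. Phactr1, a regulator of actin and protein phosphatase, was at 0.401 (0.286 to 0.547), and Galnt18, a glycosyltransferase, at 0.235 (0.112 to 0.432).

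Other genes were lower in Sst-gated nuclei or had an interval that included 1, beside members with both high and low folds. Rad21, a subunit of the cohesin ring, was at 1.30 per 10000 UMIs against 1.54, a ratio of 0.842 (0.661 to 1.06), beside GRE12. Spcs3, a subunit of the signal peptidase complex, was at 0.682 (0.540 to 0.851) beside GRE64, and Zfp362, a zinc finger protein, at 0.498 (0.214 to 0.986) beside GRE245. Tle4, a transcriptional corepressor, was at 0.498 (0.299 to 0.780), beside GRE79. In set 1 its level was 0.664 per 10000 UMIs in Sst-gated against 0.626 in other nuclei, and in set 2 it was 0.0326 against 0.697, so it was lower in set 2 alone. Ctnna1, the alpha catenin of cell junctions, was at 0.273 (0.136 to 0.490) and highest in vascular-gated nuclei at 6.79. Ednrb, an endothelin receptor, was highest in OPC-gated (12.7) and astrocyte-gated (6.72) nuclei and at 0.213 (0.0580 to 0.548) beside GRE264. Msl2, a ubiquitin ligase, was at 0.710 (0.496 to 0.986) beside GRE154, and Hectd2, of another ubiquitin ligase family, at 0.712 (0.514 to 0.962) beside GRE191, both members with folds of 1.46. GRE191 had 12 UMIs in Sst-gated nuclei, 7 of them in 1 nucleus. Its fold was 0.920 at the lowest with 1 library left out, and 2.56 with Sst nuclei taken by expression cluster.

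For the rest of the named genes the interval included 1: Neo1 (0.818), Wasf1 (0.741), Kcnip4 (0.743), Dusp26 (1.27), Bcl6 (1.03), Tdrd3 (0.936), Ccdc66 (0.994) and Samsn1 (0.966). Some neighbours were hardly transcribed in these nuclei: Cylc2 beside GRE58 had 4 UMIs in all, Ldoc1 beside GRE69 had 21, A830019L24Rik beside GRE158 had 15, 8430437L04Rik beside GRE21 had 9, Crisp4 beside GRE34 had 8 and Lif beside GRE188 had 48. Gm13544 beside GRE255 had 110, none of them in Sst-gated nuclei.

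The ATAC reads at the members were few. The 6 samples had 1801883 to 2256073 reads over 323369 regions. The elements were selected by the study for high SST over PV and VIP signal in these same samples, so the values are no independent evidence of a direction. Summed over the 50 members there were 189 and 388 reads in the SST samples, 17 and 16 in the PV samples and 4 and 5 in the VIP samples. Replicate 1 of SST held 0 reads for 15 members and replicate 2 for none. A peak was marked in at least 1 SST sample for 23 members, in both for 9, and in no PV or VIP sample for any of the 50. In percent these were 46, 18 and 0, against 55.1, 11.8 and 5.23 of all elements.

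Only 3 members had enough reads for the filter of the test, and they passed through the SST samples alone, so that a difference was built in. They were GRE267 with 39 and 40 reads in SST, 5 and 6 in PV and 2 and 2 in VIP, GRE158 with 22 and 14, 2 and 2, and 1 and 0, and GRE146 with 12 and 19, 3 and 0, and 1 and 0. Their log2 differences of SST from the mean of PV and VIP were 3.48 (SE 0.39), 3.94 (SE 0.61) and 3.91 (SE 0.68), with edgeR quasi-likelihood Benjamini-Hochberg adjusted p values of 6.95e-05, 0.000538 and 0.00123. Over all 40338 regions tested, 8.15% were higher in SST at an adjusted p under 0.05. Without the filter all 50 members were tested and 2 passed, against 0.133% of all 310118 regions. Without replicate 2 of SST 2 of 3 members with enough reads were higher, against 7.61% of all regions tested. Without replicate 1 of SST 7 of 7 were, against 8.81%, and without any 1 of the PV or VIP samples 6 or 7 of 10, against 5.37% to 6.22%. These members were selected for this excess, so the counts are a description. By the methods each replicate was a separate experiment on nuclei of 1 animal, so the spread behind these p values is that between 2 animals per driver.

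The folds of these 3 members in the screen lay apart. GRE267 gave 199 UMIs of which 2 were in Sst-gated nuclei, a fold of 0.828 (0.649 to 1.36), and 1.48 with Sst nuclei taken by expression cluster. GRE158 and GRE146 had folds of 2.42 and 3.30. Conversely GRE12, the highest in the screen, had 0 and 14 SST reads, and GRE58 had 2 and 16. GRE156 had 0 and 11, GRE255 0 and 4, and GRE96 1 and 5.

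By sequence the members were AT-rich. The median GC content of their central 300 bases was 42% (34% to 57%), against 41.3% for all elements and 51% for the 36215 conserved regions from which elements were drawn. No CpG dinucleotide was found in 9 members (18%), against 9.41% of all elements and 2.30% of conserved regions. Their median phyloP conservation score was 0.632, with 0.717 for all elements.

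Motifs were searched as letters on both strands. The E-box CAGCTG was in 17 members (34%), against 35.2% of all elements and 28.7% of conserved regions, and the AP-1 motif TGANTCA in 10 (20%), against 22.3% and 11.1%. The homeobox core TAATTA was in 6 members (12%, against 12.2% and 8.32%), the SOX motif ACAATG in 8 (16%, against 13.2% and 14.6%), and the POU octamer ATGCAAAT in 4 (8%, against 7.67% and 2.71%). The MEF2 consensus was in 5 (10%, against 8.71% and 3.93%), the nuclear receptor motif AGGTCA in 3 (6%, against 4.53% and 13.3%), and the CRE palindrome TGACGTCA in no element of the library, against 0.630% of conserved regions. Members and library were thus alike in these shares, and both were above the conserved regions for the AP-1, POU and MEF2 letters and below them for the nuclear receptor motif.

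None of these motifs was in all 4 of the printed sequences with the highest folds, and GRE58 and GRE14 both held an E-box. GRE12 held none of the motifs, GRE58 held 1 match each to the E-box, AP-1 and homeobox letters, GRE156 held the SOX letters on the reverse strand, and GRE14 held an E-box. GRE96, the lowest, held 2 E-boxes and a homeobox core that lies within a MEF2 match. GRE255 held a MEF2 match, GRE126 the SOX letters and GRE267 an E-box. Median folds were 2.35 for the 10 members with an AP-1 match and 1.96 for the 40 without, 1.71 for the 17 with an E-box and 2.27 for the 33 without, and 2.62 for the 6 with a homeobox core and 1.88 for the 44 without. They were 1.46 for the 5 with a MEF2 match and 2.27 for the 45 without, 1.40 for the 3 with the nuclear receptor motif and 2.05 for the 47 without, 2.47 for the 4 with the POU octamer and 1.88 for the 46 without, and 1.95 for the 8 with the SOX letters and 1.96 for the 42 without. The overlap of these groups was not taken into account, and a match is a description of letters only.

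In position the members lay on 18 chromosomes, 36 upstream and 14 downstream of the named start, at a median of 58440 bases. By GENCODE M21, an annotation of the same build, 10 members overlapped a gene, 5 of them a protein-coding gene (among them GRE146 in an intron of Gucd1, GRE152 in Kcnip4 and GRE267 in Btbd3) and GRE126 in an intron of the long noncoding Gm49518. The only exon overlapped was that of a small nucleolar RNA, at GRE76. The nearest protein-coding start was that of the named gene for 37 members, so for the rest the gene whose expression is given is not the nearest coding gene. GRE64, for example, was nearest to Asb5, and GRE255 to Cytip.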

How the data were processed

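Nuclei from AAV-injected mouse visual cortex (1 sample, 10 libraries) and ATAC-seq from 6 samples of Cre-marked cortical nuclei were used. The deposited counts of the screen are UMIs per gene and viral barcode in each nucleus, and the deposited ATAC counts are reads per region, neither normalised by the authors. The submitters' processing notes name Trimmomatic 0.33, Subread 1.4.6-p3, featureCounts, SAMtools, MACS2, HOMER and bedtools. The authors also deposited phyloP scores per region, peak marks, distances to RefSeq starts, peak lists with −log10 q values and ratios of SST over other cells (folds of their own comparison). The last pair was not used.

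UMIs of the 3 barcodes of an element were summed in nuclei with more than 200 non-viral UMIs, and folds were taken on mean UMIs plus a pseudocount of 0.01. Ratios of shares, of element UMIs or of nuclei with a UMI, carried no pseudocount. Intervals are exact 95% intervals and, with floors of 3 counts, cover counting error only. No doublet caller was run. ATAC counts were tested in edgeR 4.0.16 (quasi-likelihood, limma 3.58.1, R 4.3.3), after edgeR's filter on low counts, comparing SST with the averaged PV and VIP levels in a fit of all 6 samples without a replicate block, and the step was tested on simulated data. DESeq2 1.42.0, Python 3.11.15, scanpy 1.11.5, numpy 2.4.6, scipy 1.17.1 and pandas 2.3.3 served the rest. Of members with at least 300 UMIs, the 10 highest and 3 lowest Sst folds and the highest of each other gate were named, with the 2 most and 2 least abundant members and those passing the ATAC test. Genes named were theirs and, of other members, the 10 with the most UMIs, of which 1 is not reported here. The members and lists were chosen with earlier results of these data known. Alternatives covered the pseudocount, the gate, the compared nuclei, shares, single barcodes, and single libraries or samples left out.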

Additional observations from a re-analysis of the deposited data

Results flagged for a closer look

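In data outside the comparisons, the 15013 cell barcodes left out for having 200 or fewer non-viral UMIs (median 129) still held 1.68 member UMIs each on average, against 3.15 per kept nucleus, and 41.7% of them had at least 1. In kept nuclei, 303 viral barcode columns that belong to no element of the annotated table held 5791 UMIs.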

How the results depend on the processing

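The median member fold (1.96) was 1.30 with a pseudocount of 0.1 and 0.884 on shares of viral UMIs, and 1.75 to 2.14 with each library left out. The 25 members above 2 became 14 with a pseudocount of 0.1, 15 against Pvalb-, Vip- and Npy-gated nuclei, 3 on shares, 15 without the 1% of nuclei highest in viral UMIs, and 22 to 27 with each library left out. Of named members above 2, the fold turned below 1 for GRE158 (0.814) and GRE126 (0.869) on shares, and for GRE79 with barcode 2 alone (0.739) or without its leading nucleus (0.969). All 7 named members with folds between 1 and 2 were below 1 on shares (0.435 to 0.743), and some of them under other settings too. Of 750 values of 25 named members, 499 stayed within the main value's counting interval and 251 did not, among them the 4 above. With Sst nuclei taken by cluster GRE96 (0.820) was at 2.01 and GRE267 (0.828) at 1.48. GRE21 (1.88) passed 2 without library 1-1 (2.16) or 1-3 (2.11). The cause was not tested. Leaving out a leading nucleus, counting shared names once, and keeping nuclei of several gates as Sst were added after seeing the data.

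For accessibility, 3 members were higher, 3 with DESeq2, 2 without the filter and 2 to 7 with each sample left out, where the number passing the filter also changed. Over all regions the 3288 higher calls were 864 with DESeq2, 411 without the filter and 2994 with a replicate block. Under the replicate block 3 members were higher. The members were selected for this excess in the same samples, so their counts under every setting are a description. Deviations of same-numbered samples correlated at -0.034, 0.027 and 0.032, so the numbers were not taken to pair samples. Members with few UMIs or reads had wide intervals, and as no label ties a library to a mouse, comparisons between nuclei were not tested over mice.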
